A study of Mus musculus with 46 samples.

Results

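The 9 genes described here, H2-Aa, H2-Ab1, H2-Eb1, H2-DMa, H2-DMb1, Cd74, Ciita, Cd80 and Cd86, carry out or switch on MHC class II antigen presentation. They were taken by name from a table of 53465 genes measured in cells sorted from mouse kidney, and all 9 were found, each in a single row. Gene expression was measured by RNA-seq in F4/80+ macrophages, LTL+ proximal tubule (PT) cells, CD31+ endothelial cells and PDGFRB+ stromal cells after sham surgery, unilateral ureteric obstruction (UUO) or reversal of the obstruction (rUUO). All mice were wild-type (WT) male C57BL/6 animals of 8 to 12 weeks. The study describes culls at day 2 and day 7 of UUO and, for rUUO, 14 days after reimplantation of the ureter, but the labels of these samples do not say which UUO day each belongs to. The design describes 4 mice in each group, and the samples used were 4 sham, 4 UUO and 3 rUUO for macrophages, 3, 4 and 3 for PT cells, 4, 3 and 4 for endothelial cells and 4, 4 and 4 for stromal cells, 44 in all. The sorted populations were checked against their defining genes. Adgre1, which encodes F4/80, stood at 152 to 247 FPKM in macrophages and at or below 1.54 in the other populations. Lrp2, the PT endocytic receptor megalin, stood at 55 to 229 FPKM in PT cells and at or below 9.75 elsewhere, and Pecam1 (CD31) and Pdgfrb were likewise highest in every sample of their own population.

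A class II molecule is a pair of an alpha and a beta chain that displays peptides from engulfed material to CD4+ T cells. The invariant chain encoded by Cd74 occupies the groove while the pair travels to the endosome, and the DM molecule then exchanges the remaining invariant chain fragment for a peptide. CIITA is the coactivator without which class II genes are hardly transcribed, and CD80 and CD86 give the T cell its second, costimulatory signal through CD28. Macrophages, dendritic cells and B cells present in this way constitutively, whereas epithelial and endothelial cells can acquire class II under interferon gamma.

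Of the members, 5 lie in the class II region of chromosome 17 between positions 34135182 and 34316199 of build GRCm38, in the order H2-DMa, H2-DMb1, H2-Ab1, H2-Aa and H2-Eb1. H2-Aa is read from the minus strand and the other 4 from the plus strand. Ciita, Cd80 and Cd86 are on chromosome 16, and Cd74 lies on neither of these chromosomes. H2-Aa and H2-Ab1 encode the alpha and beta chains of I-A, H2-Eb1 the beta chain of I-E, and H2-DMa and H2-DMb1 the chains of the DM molecule. C57BL/6 mice lack a working alpha chain of I-E, and its pseudogene, listed as H2-Ea-ps, was at 0 in 44 of 44 samples (a gene looked up after the values were seen).

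Promoter sequence is shown because class II, DM and invariant chain genes are known for a shared promoter module through which CIITA acts, in which an X box bound by the RFX complex precedes a Y box, an inverted CCAAT bound by NF-Y. In RefSeq windows of build GRCm38.p6, from 250 bases before to 50 after a gene's start, 5 of the 9 members were found. CTNGNAAC followed 15 to 40 bases later by ATTGG on the same strand, with both strands searched, was present for 3 of these 5 members and in 0.317% of all 32851 windows. ATTGG alone was present on either strand in 37.4% of windows. The letters of the search were chosen after the members' windows had been read, so the share is a description. The 2 motifs are in capitals below, with the same stretch of H2-Ob, a beta chain of the DO molecule that holds DM in check, for comparison. H2-Aa is from the minus strand of chr17:34287862-34287912, H2-Eb1 from the plus strand of chr17:34305768-34305817, H2-DMb1 from the plus strand of chr17:34153089-34153139 and H2-Ob from the plus strand of chr17:34238810-34238857.
H2-Aa: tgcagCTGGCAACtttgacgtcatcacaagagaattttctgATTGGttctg
H2-Eb1: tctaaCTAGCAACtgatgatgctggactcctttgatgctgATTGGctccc
H2-DMb1: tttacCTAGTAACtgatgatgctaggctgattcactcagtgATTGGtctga
H2-Ob: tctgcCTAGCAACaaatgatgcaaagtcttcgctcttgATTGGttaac
The 2 motifs were 28, 27, 28 and 25 bases apart in H2-Aa, H2-Eb1, H2-DMb1 and H2-Ob, and the first began 84 to 97 bases before the RefSeq start.

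Values are FPKM, read fragments scaled to gene length and to library size, which are per length and so can be compared between genes as levels. Their sum was 586929 to 884982 per sample, and mitochondrial genes took 20.2% to 75.6% of it, with the highest shares in PT cells. Read counts were not used here, so depth was only estimated from the spacing of low values, at 0.727 to 1.56 times the median sample. A single sample, macrophage UUO replicate 2, stands apart. In it, C1qa, a complement gene of resident macrophages, was at 176 FPKM against 1355 to 1621 in the other 3 UUO samples. Its mitochondrial share was 37.8% against 22.6% to 26.4%, and it had the lowest H2-Aa, H2-Ab1, H2-Eb1, H2-DMa and H2-DMb1 of all macrophage samples. Differences below are log2 changes of FPKM + 1 from limma with standard errors (SE), and a gene is said to have risen or fallen only at an adjusted p under 0.05 over all genes tested.

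In sham kidneys the members were highest in macrophages. The 6 class II and invariant chain genes together made up 7.91% ± 0.544 (SD, n = 4) of the FPKM sum of sham macrophages. The order of levels was Cd74 (22423 ± 1839 FPKM), H2-Aa (17475 ± 1631), H2-Ab1 (12075 ± 2125), H2-Eb1 (5664 ± 949.8), H2-DMa (875 ± 70.4), H2-DMb1 (334 ± 33.5), Cd86 (76.7 ± 2.02), Ciita (20.4 ± 0.619) and Cd80 (1.58 ± 1.14), each as mean ± SD with n = 4. No neighbouring pair in this order overlapped between samples, so the peptide-binding chains lay far above the DM chains and these above the regulator and the costimulatory ligands.

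**Figure D1:**
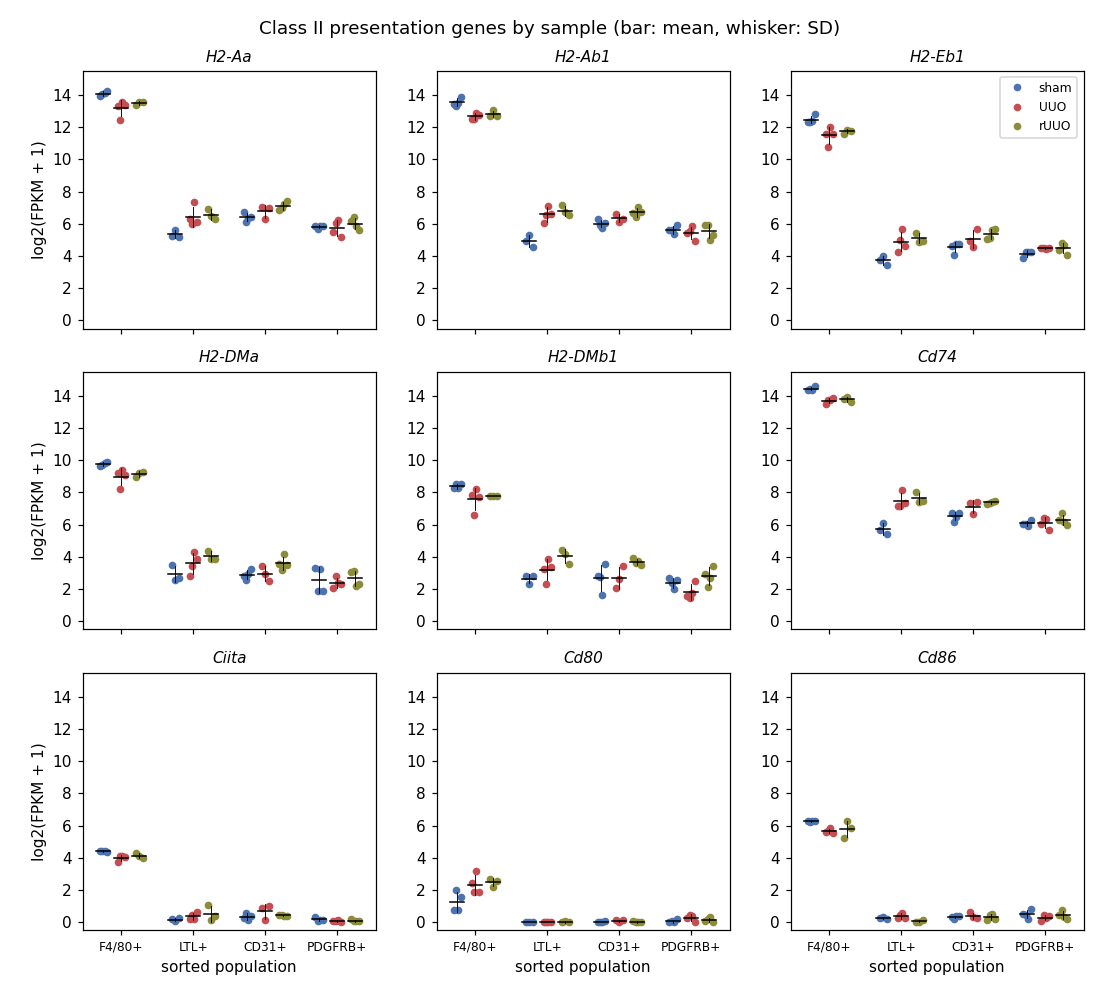
Level of each member by sorted population (x axis) and surgery (colour), as log2(FPKM + 1) on the y axis. Points are samples, bars the group mean and whiskers the SD. Cd74 lay between 11480.1 and 25039 FPKM in the 11 macrophage samples and between 41.6 and 289 FPKM in the other 33.

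In the other 3 populations the same chains were present at a small fraction of this. As a percentage of the sham macrophage mean, their median was 0.246% in PT, 0.507% in endothelial and 0.36% in stromal cells. The median of 8 macrophage markers was 0.322%, 0.39% and 0.406%. The part of macrophage RNA in these levels was not tested. In PT sham cells Cd74 stood at 50.9, 68.2 and 41.6 FPKM, and H2-Aa at 36.9, 48.3 and 35.7 FPKM. The order Cd74, H2-Aa, H2-Ab1, H2-Eb1 was kept there, but the first 3 overlapped between neighbours. Ciita was at or below 1.08 FPKM, Cd86 at or below 0.74 and Cd80 at or below 0.39 in every PT, endothelial and stromal sample. Cd80 was listed at 0 in 9 of the 10 PT samples.

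Macrophages were compared with each other population in sham kidneys to set the baseline, with all 44 samples in 1 fit. Of the 8 members that passed the filter of a mean of 1 FPKM (Cd80 did not), 8 were higher in macrophages than in PT cells (background 49.8% of all 14332 genes higher), 8 than in endothelial cells (background 19.6%) and 8 than in stromal cells (background 18.9%). Ciita and Cd86 passed this filter only through macrophages, so their higher level there was fixed in advance and adds nothing to these counts. The differences ran from 4.08 for Ciita against endothelial cells to 8.73 for H2-Aa against PT cells.

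Among the other populations, H2-Ab1 was lower in PT than in endothelial cells by 1.06 ± 0.236 (SE; adjusted p = 0.000187, limma), and H2-Aa, H2-Eb1 and Cd74 were lower as well, 4 of 8 against a background of 52.2%. The median of the 8 was -0.48 and that of all genes -0.92. Ciita and Cd86 are among the 8 but stood at or below 0.74 FPKM in every sham sample outside macrophages. So close to 0 they could hardly differ on this scale, which limits this count and those with stromal cells below. Nothing about the members against genes at large is read from these counts. H2-DMa and H2-DMb1 differed between these populations by 0.03 (95% interval -0.66 to 0.71) and -0.02 (-0.78 to 0.73). Against stromal cells 1 of 8 members, H2-Ab1, was lower in PT cells (background 58.1%), with medians of -0.28 for the 8 and -1.05 for all genes. Endothelial and stromal cells differed in 0 of 8 members (background 23.7% in either direction, limma), with 2, Cd74 and H2-Aa, at an unadjusted p under 0.05. In bulk samples, fewer cells carrying a transcript and less transcript per cell cannot be told apart. The part of macrophage RNA in these differences was not tested.

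The first surgical question is what obstruction did to macrophages. H2-Aa, H2-Ab1, H2-Eb1 and Cd74 fell in UUO, and H2-DMa, H2-DMb1, Ciita and Cd86 were also below every sham sample without passing the adjusted test. Cd80 alone had a positive difference. The 4 calls compare with a background of 2.13% of 13332 genes lower, and the 8 members whose groups did not overlap compare with 5.67% of genes. The median log2 change of the 9 members was -0.78, against -0.03 over all genes tested.

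Cd74, the invariant chain, was at 21425, 22321, 20908 and 25039 FPKM in sham macrophages and at 11480.1, 13566, 13479 and 15064 in UUO. Every UUO sample was below every sham sample, and the log2 change was -0.75 ± 0.177 (SE; adjusted p = 0.0278). H2-Ab1, the I-A beta chain, was at 11287, 10144, 11778 and 15092 FPKM in sham and at 5887, 5702, 7645 and 6947 in UUO, a change of -0.88 ± 0.188 (adjusted p = 0.0175).

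Its alpha chain partner H2-Aa was at 15544, 17055, 17838 and 19462 FPKM in sham macrophages and at 10187, 5644, 12105 and 10581 in UUO. The low value is that of the sample that stands apart, and the change was -0.91 ± 0.229 (adjusted p = 0.0362). H2-Eb1 was at 5071, 5221, 5282 and 7082 FPKM in sham and at 3034, 1706, 4201 and 3099 in UUO, with a change of -0.97 ± 0.237 (adjusted p = 0.0324).

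For the DM chains the sham values were 795 to 948 FPKM (H2-DMa) and 303 to 364 (H2-DMb1), and the UUO values 298 to 683 and 97.6 to 299. Their changes of -0.80 ± 0.219 and -0.78 ± 0.261 missed the threshold (adjusted p = 0.0515 and 0.107). Without UUO replicate 2, the sample that stands apart, the changes were -0.55 (adjusted p = 0.0357) and -0.46 (adjusted p = 0.0937).

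Ciita was at 20.9, 20.9, 20.2 and 19.6 FPKM in sham macrophages and at 12.4, 16.3, 16.2 and 15.3 in UUO. The groups did not overlap, and the change of -0.42 ± 0.188 had an adjusted p of 0.233 (limma). Its 95% interval, -0.82 to -0.02, includes the fitted change of Cd74.

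The costimulatory ligands had differences of opposite sign. Cd86 was at 77.8, 73.9, 78.6 and 76.5 FPKM in sham macrophages and at 48.1, 49.2, 56.0 and 45.6 in UUO, a change of -0.62 ± 0.201 (adjusted p = 0.0992). Cd80, far less abundant, was at 0.67, 3.01, 0.66 and 1.99 FPKM in sham and at 4.49, 2.61, 7.88 and 2.67 in UUO, a change of 1.07 ± 0.396 (adjusted p = 0.146). Sham and UUO overlapped for Cd80 and were separate for Cd86.

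These calls are close to the threshold. Without the filter on low values, or without the intensity trend in limma, 0 of the 9 members were called. Leaving out any 1 of the 4 sham samples left 1 member called, H2-Ab1, and leaving out UUO replicate 1 left none. Without UUO replicate 3 there were 6, and without the sample that stands apart 5, H2-DMa included, with changes of -0.67 for H2-Aa and -0.72 for H2-Eb1. Under quantile normalisation, which sets all samples to 1 distribution, Cd74 and H2-Aa, the 2 most abundant members, changed by -0.16 (adjusted p = 0.633) and -0.35 (adjusted p = 0.471), while H2-DMa (-0.89), H2-DMb1 (-0.96) and Cd86 (-0.77) passed.

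Some markers of other cells moved in the same macrophage samples, beside a background of 2.86% of all genes higher and 2.13% lower. Of 5 monocyte markers tested, 2 rose, and Ccr2, a chemokine receptor of recruited monocytes, was at 50.3 to 87.7 FPKM in sham and 199 to 241 in UUO. The summed monocyte list was at 56.3 to 94.7 FPKM in sham, 234 to 281 in UUO, and in rUUO 131 to 152. Of 7 B cell markers 2 rose, of 5 T cell markers tested 2 rose, and of 7 dendritic cell markers tested 1, Clec9a, fell. Among the defining genes, Flt3 stayed at or below 2.1 FPKM, Cd79a was at 1.12 to 1.9 in sham and 2.1 to 20.8 in UUO, and Cd3e at or below 0.72 in sham and 1.19 to 18.9 in UUO. The summed dendritic cell list was at 93.7 to 129 FPKM in sham and 49.1 to 108 in UUO. The summed B cell list was at 102 to 131 FPKM in sham and 125 to 191 in UUO, and the T cell list at 27.0 to 37.1 and 26.1 to 83.9. Of 8 macrophage markers 1, Mertk, rose, and their sum was 6290 to 8075 FPKM in sham and 3933 to 6809 in UUO. The part of these cells in the class II changes was not tested.

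**Figure D2:**
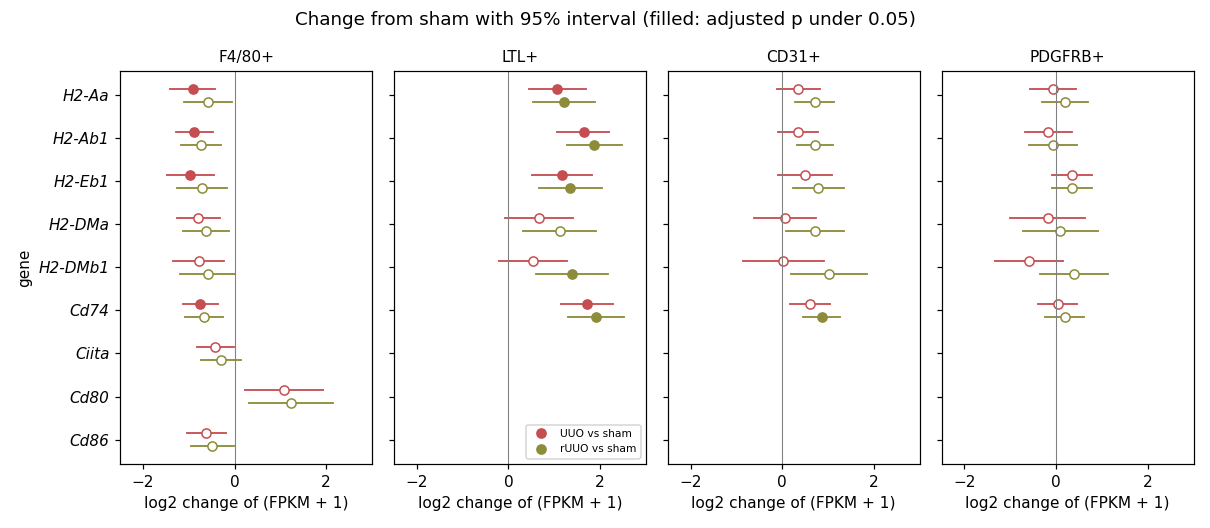
Log2 change of FPKM + 1 from sham (x axis) for each member (y axis) in the 4 populations, with 95% intervals, for UUO and rUUO. Filled points passed an adjusted p under 0.05. Ciita, Cd80 and Cd86 passed the filter on low values in macrophages only. The chains lie left of 0 in macrophages and right of 0 in PT cells.

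Reversal of the obstruction was examined next, against UUO for recovery and against sham for what remained. Between UUO and rUUO macrophages 0 of 9 members were called, beside 0 of 13332 genes in all (background 0%, limma). An unadjusted p under 0.05 was met by 945 genes, of which 0 were members, and the fit of all 4 populations called 35 genes. The 9 fitted changes were all positive, from 0.08 for Cd74 to 0.33 for H2-Aa. Their 95% intervals ran from -0.76 to 1.07 over the 9, and that of Cd74 from -0.33 to 0.49, beside its UUO change of -0.75.

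Against sham, 0 of 9 members were called in rUUO macrophages (background 1.55% lower), with 7 at an unadjusted p under 0.05. Cd74 was at 14451, 15541 and 12492 FPKM in rUUO, H2-Ab1 at 6636, 8529.7 and 6582, H2-Aa at 10474, 12232 and 12264 and H2-Eb1 at 3097, 3681 and 3518.5. All of these lie below the lowest sham sample. In 7 of the 9 members rUUO lay wholly below sham, against 9.24% of all genes, the exceptions being Cd86 and Cd80. The changes of H2-Ab1 and Cd74 from sham were -0.73 ± 0.203 (adjusted p = 0.0679) and -0.67 ± 0.191 (adjusted p = 0.0781). Both passed once mitochondrial genes were left out of the scaling (adjusted p = 0.0163 and 0.0271), a setting added with the data in view. Under quantile normalisation H2-Ab1 and H2-Eb1 passed and Cd74 changed by -0.10. Both comparisons share the sham samples, and the class II share of the FPKM sum was 7.91% ± 0.544 in sham (n = 4), 4.34% ± 0.727 in UUO (n = 4) and 5.11% ± 0.307 in rUUO (n = 3), each with its SD.

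Cd86 was at 36.9, 76.3 and 57.1 FPKM in the 3 rUUO samples, a wider spread than in sham or UUO. Cd80 was at 5.46, 3.54 and 5.02 FPKM in rUUO, all above the highest sham value of 3.01, with a change of 1.22 ± 0.428 from sham that missed the threshold (adjusted p = 0.153).

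The rest of the class II pathway in macrophages did not move as 1 block. Of 7 genes of antigen processing and class II turnover 3 rose in UUO and 0 fell (background 2.86% higher), with a list median of 0.58. Ifi30, the lysosomal thiol reductase GILT, was at 78.7, 76.9, 106 and 109 FPKM in sham macrophages and at 329, 308, 258 and 288 in UUO, a change of 1.68 ± 0.162 (adjusted p = 9.15e-05). Ctsl, the endosomal protease cathepsin L, was at 56.9 to 71.0 FPKM in sham and 138 to 290.2 in UUO, a change of 1.66 ± 0.219 (adjusted p = 0.00058). Ifi30 and Ctsl were called in 16 of 16 alternatives.

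Legumain (Lgmn), another endosomal protease, rose by 0.73 ± 0.165 (adjusted p = 0.0239), a call kept in 9 of 16 alternatives. Cathepsin S (Ctss), which trims the invariant chain, had a change of 0.20 (95% interval -0.13 to 0.53), and March1, a ubiquitin ligase that removes class II from the surface, had one of 0.20 (-0.22 to 0.62). Against sham, 3 of these 7 genes also rose in rUUO macrophages (background 1.89% higher), namely Ifi30, Ctsl and Cd83. Ifi30 was called in 15 of 15 alternatives, Ctsl in 13, not with the replicate block or without rUUO replicate 1, and Cd83 in 7.

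Of the DO chains, which form an inhibitor of DM, H2-Oa fell. H2-Oa, the alpha chain, was at 43.9, 26.9, 17.9 and 40.7 FPKM in sham macrophages and at 5.82, 2.23, 13.5 and 5.33 in UUO, a change of -2.23 ± 0.442 (adjusted p = 0.0113). The groups did not overlap, and the call was kept in 15 of 16 alternatives. H2-Ob was at 16.1 to 26.6 FPKM in sham and 4.39 to 17.6 in UUO, a change of -1.15 (adjusted p = 0.114), and fell against sham in rUUO (-1.75, adjusted p = 0.0384), a call kept in 6 of 15 alternatives. H2-DMb2, a near copy of H2-DMb1 whose reads could be shared with it, was at 7.62 to 18.2 FPKM in sham and 4.22 to 34.0 in UUO macrophages and was not called. DO is typical of B cells, and the 7 B cell markers, of which 2 were called, had a median change of 1.78 in UUO against sham macrophages. The part of B cells or other presenting cells in the DO changes was not tested. Markers of PT cells were lower in the same samples, with 4 of 6 tested called (background 2.13% lower). Their summed list was at 93.9 to 121 FPKM in sham and 19.0 to 35.4 in UUO.

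Of the 7 genes of the promoter complex (RFX, NF-Y and CREB subunits) 0 were called in macrophage UUO, and of the interferon gamma to CIITA list 0 of 7 tested. Of 10 class I presentation genes 0 were called, with a median of -0.25. At a background of 2.86% higher and 2.13% lower, lists of this size would hold few or no calls, so nothing is read from these counts. Of 4 other costimulatory ligands tested, Cd40 rose by 1.09 (adjusted p = 0.0182) and Icosl fell by 0.79 (adjusted p = 0.0177).

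**Figure D3:**
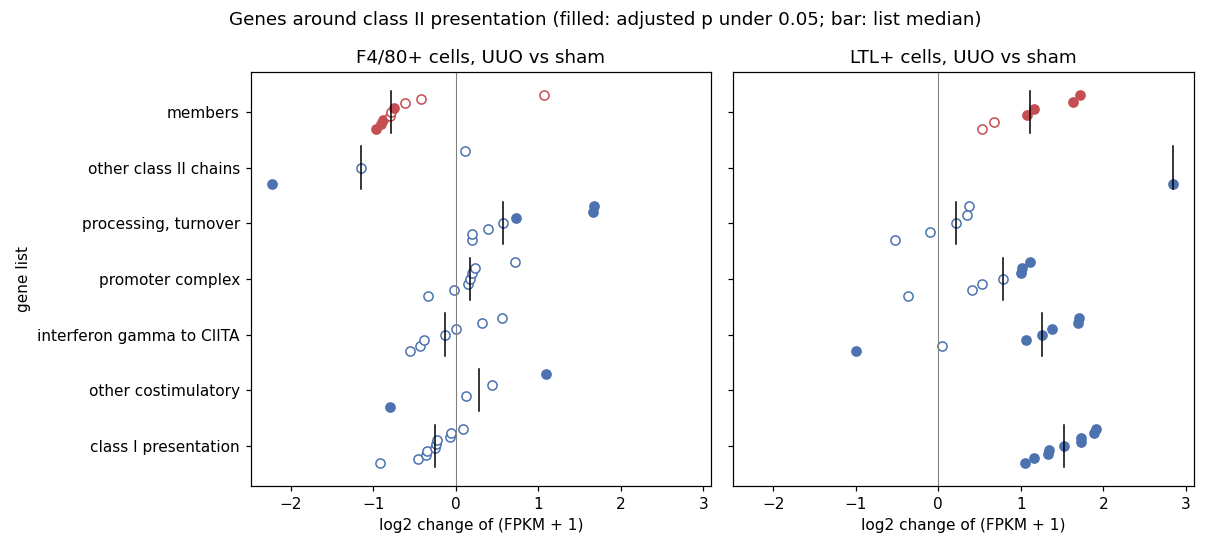
Log2 change of FPKM + 1 in UUO against sham (x axis) for single genes of 7 lists (y axis), in macrophages (left) and PT cells (right). Filled points passed an adjusted p under 0.05 and vertical bars are list medians. The members lie left of 0 in macrophages except Cd80, and the members and class I genes lie right of 0 in PT cells.

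PT cells went the other way. In UUO, H2-Aa, H2-Ab1, H2-Eb1 and Cd74 rose, 4 of the 6 members that passed the filter, against a background of 27.9% of 11416 genes higher. Groups did not overlap for the same 4, against 34.5% of all genes. The median change of the 6 was 1.12 and that of all genes 0.51, so more than the members was higher on this scale. The mitochondrial share of FPKM was 68.9% to 75.6% in PT sham and 58.7% to 66.4% in PT UUO. Of 7 PT markers 5 fell in PT UUO and 0 rose (background 4.91% lower). Their sum was 2009 to 2655 FPKM in sham and 661 to 1049 in UUO. The part of this loss in the class II changes was not tested.

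Cd74 was at 50.9, 68.2 and 41.6 FPKM in PT sham and at 140, 143, 289 and 165 in UUO, a change of 1.72 ± 0.266 (adjusted p = 0.000264). H2-Ab1 was at 30.0, 39.1 and 22.4 FPKM in sham and 64.1, 91.3, 139 and 98.5 in UUO, a change of 1.64 ± 0.265 (adjusted p = 0.000381). UUO replicate 3 had the highest value for both genes.

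H2-Eb1 was at 9.79 to 15.1 FPKM in the sham samples and at 18.4 to 50.8 after obstruction, a change of 1.16 ± 0.305 (adjusted p = 0.0104). H2-Aa was at 35.7 to 48.3 and then 62.4 to 161 FPKM, a change of 1.07 ± 0.293 (adjusted p = 0.0131). H2-DMa and H2-DMb1 had changes of 0.67 (adjusted p = 0.149) and 0.54 (adjusted p = 0.244), close to the 0.51 of the median gene. The call of H2-Aa was lost without the filter on low values (adjusted p = 0.0633), that of H2-Eb1 without sham replicate 4, and H2-DMa passed without UUO replicate 1.

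Scaling sets how large the PT changes are. Quantile normalisation took the median over all genes to -0.04 and the calls from 3186 higher and 561 lower to 1218 and 1217, and rescaling without mitochondrial genes gave a median of 0.27 with 1940 and 863. Cd74 then changed by 1.48 (adjusted p = 0.000105) and 1.43 (adjusted p = 0.00018), and H2-Ab1 by 1.37 and 1.34. Under quantile normalisation H2-Eb1 no longer passed (0.76, adjusted p = 0.0555) and the difference of H2-DMb1 turned negative (-0.02).

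After reversal the PT levels stayed up. Against UUO 0 of 6 members were called (background 3.83% in either direction), and all 6 differences were positive, from 0.14 to 0.86 (limma, with 1 member, H2-DMb1, at an unadjusted p under 0.05). Against sham 5 of 6 were higher in rUUO (background 6.52%), and all 6 had groups that did not overlap (background 20.6%). Cd74 was at 262, 170.4 and 178 FPKM in rUUO, a change of 1.91 ± 0.285 from sham (adjusted p = 0.000615), and H2-Ab1 changed by 1.88 ± 0.283 (adjusted p = 0.000674).

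H2-DMb1 was at 20.3, 17.2 and 10.7 FPKM in rUUO against 6.0, 4.07 and 6.04 in sham, a change of 1.39 ± 0.368 (adjusted p = 0.0336). H2-Eb1 (1.36, adjusted p = 0.0203) and H2-Aa (1.21, adjusted p = 0.0304) rose as well, while H2-DMa had 1.12 (adjusted p = 0.0864). All 6 lie above the median of all genes, 0.21. The count rests on few samples. It was 2 without the filter on low values. It was also 2 without sham replicate 1, without sham replicate 4 and without rUUO replicate 2, and 3 without rUUO replicate 3. Cd74 and H2-Ab1 were called in 14 of 14 alternatives each. The split of all calls was 744 higher and 108 lower, 508 and 232 under quantile normalisation and 714 and 225 without mitochondrial genes.

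H2-DMb2 gave the largest PT change of the class II chains tested, although it was no member. It passed the filter on low values only through its UUO and rUUO samples, so a positive change was built into its being tested. Without the filter it was called as well. It was at 0.52, 0.16 and 0 FPKM in PT sham, at 5.42, 7.28, 9.57 and 8.97 in UUO and at 12.8, 6.65 and 17.8 in rUUO. Its log2 change was 2.84 ± 0.333 in UUO (adjusted p = 2.43e-05) and 3.38 ± 0.356 in rUUO (adjusted p = 2.52e-05), called in 15 of 15 and 14 of 14 alternatives. These PT levels come to 40.3% ± 9.62 (SD, n = 4) of the macrophage mean in UUO and 49.3% ± 22.2 (n = 3) in rUUO. H2-DMb1 was at 4.22% ± 1.91 and 7.26% ± 2.19 of it in the same samples. How reads of the 2 near copies were shared out is not given in the sources used here.

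Genes upstream of class II were examined next. Ciita was at 0.04 to 0.20 FPKM in PT sham, 0.14 to 0.54 in UUO, and in rUUO 0.08 to 1.08, below the filter, so it was not tested in PT cells. Of the interferon gamma to CIITA list 5 of 7 genes tested rose in UUO and 1 fell (background 27.9% higher and 4.91% lower). Ifngr1, a chain of the interferon gamma receptor, rose by 1.70 ± 0.256 (adjusted p = 0.000213) and Irf1, a factor that acts on the CIITA gene, by 1.69 ± 0.431 (adjusted p = 0.00904). Irf1 did not pass under quantile normalisation or without the filter. The gene that fell was Irf8 (adjusted p = 0.0429), a myeloid factor, a call kept in 7 of 15 alternatives.

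Of the 7 promoter complex genes 3 rose in PT UUO (background 27.9% higher), Rfx5 (1.12), Nfya (1.01) and Rfxank (1.01). None of the 3 passed under quantile normalisation or without mitochondrial genes. The list median was 0.79 and that of all genes 0.51, so the count is not read as particular to these genes. Of the class I presentation genes 9 of the 9 tested rose (background again 27.9%), with a median of 1.53. Nlrc5, among these 9, lay near the filter on low values and was tested in only 13 alternatives, so its rise may be partly built into its being tested. It was not called under quantile normalisation. The class I heavy chain H2-K1 was at 62.5 ± 24.6 FPKM (SD, n = 3) in PT sham and 227 ± 61.7 (n = 4) in UUO, a change of 1.89 ± 0.263 (adjusted p = 0.000109), and the immunoproteasome subunit Psmb9 rose by 1.91 ± 0.297 (adjusted p = 0.000282). H2-K1 and Psmb9 were called in 15 of 15 alternatives. In rUUO 5 of 9 class I genes remained higher than sham (background 6.52%).

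Macrophage RNA in the PT samples was read from 8 macrophage markers. Of the 5 that passed the filter in PT cells, 0 were called in UUO (background 27.9% higher and 4.91% lower), with a median of 0.19. Expressed as a percentage of the macrophage mean of the same surgery, 7 of the 8 markers lay between 0.266% and 0.356% in PT sham, 0.329% and 0.664% in UUO, and in rUUO 0.273% and 0.511%. Mertk lay at 84.7%, 19.9% and 16.5%. The 6 class II and invariant chain genes lay at 0.221% to 1.61% in PT sham, 0.953% to 4.22% in UUO, and in rUUO 0.819% to 7.26%. The median class II gene was at 0.246% and the median macrophage marker at 0.322% in sham, and in UUO and rUUO the means of all 6 were above those of the 7 markers. Single samples overlapped in UUO, where H2-Eb1 reached down to 0.61% and H2-Aa to 0.648%, and Fcgr1 reached up to 1.28% and Cd68 to 1.04%. The macrophage means of the class II genes, by which they were divided, were themselves lower in UUO and rUUO than in sham. The part of macrophage RNA in the PT changes was not tested.

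Markers of other presenting cells were low in PT samples. Flt3 was at 0 in 10 of 10, Cd79a at or below 2.47 FPKM and Cd3e at or below 0.29. The summed dendritic cell list was at 0.90 to 0.94 FPKM in sham, 1.11 to 2.37 in UUO, and in rUUO 1.05 to 2.91, the T cell list at 0.07 to 0.35, 0.56 to 1.72 and 0.39 to 1.96, and the monocyte list at 1.34 to 5.73, 26.0 to 31.9 and 15.8 to 22.3. The last rested on Plac8, which was at 25.5 to 30.4 FPKM in PT UUO while Ccr2 was at or below 1.41. The B cell list was at 0.48 to 0.80 FPKM in sham, 21 to 42.7 in UUO, and in rUUO 7.08 to 12.5, most of it Blnk (20.5 to 36.0 in UUO). The part of such cells in the PT changes was not tested.

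**Figure D4:**
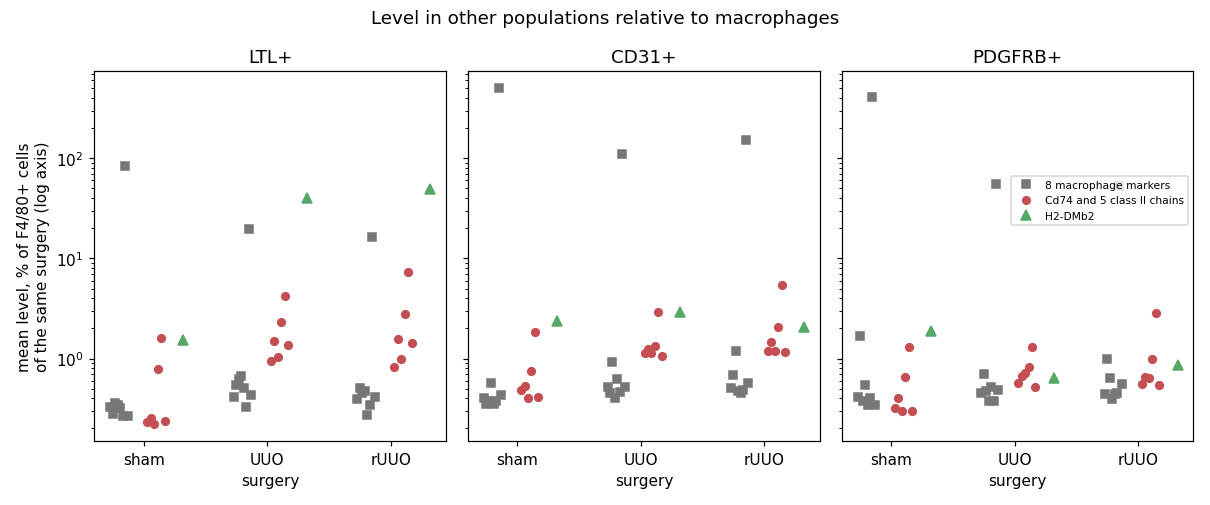
Mean level in PT, endothelial and stromal cells as a percentage of the macrophage mean of the same surgery (y axis, logarithmic), by surgery (x axis). Squares are 8 macrophage markers, circles Cd74 and 5 class II chains, triangles H2-DMb2. The isolated square is Mertk. In PT sham 4 circles lie below the squares (0.221% to 0.252%) and the 2 DM chains above all but Mertk, and in UUO and rUUO the mean of every circle lies above all but Mertk.

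In endothelial cells 1 member, Cd74, passed the test, and only for rUUO against sham. In UUO against sham 0 of 6 members were called (background 1.98% in either direction, limma), with Cd74 at an unadjusted p under 0.05 and a change of 0.61 (adjusted p = 0.176). From UUO to rUUO 0 of 6 were called (background 0.0597%), with H2-DMb1 at an unadjusted p under 0.05. Against sham, 1 of 6, Cd74, was higher in rUUO (background 1.4%), and for 4 of 6 the groups did not overlap (background 7.88%).

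Cd74 was at 103.2, 71.1, 89.2 and 103.6 FPKM in endothelial sham, 161, 99.0 and 167 in UUO and 158, 162, 167 and 177 in rUUO. The change from sham to rUUO was 0.86 ± 0.190 (adjusted p = 0.0285). It was lost in 6 of the 8 fits without 1 sham or rUUO sample, those without rUUO replicate 1, 2, 4 or 6 or sham replicate 2 or 3, and under quantile normalisation or without mitochondrial genes (adjusted p = 0.0826 and 0.0639), in all in 11 of 16 alternatives. The other 5 members had changes of 0.71 to 1.02 with unadjusted p under 0.05, H2-Ab1 next with an adjusted p of 0.0745, and the median of all genes was 0.19. Calls over all genes were 188 higher and 49 lower, and 132 and 84 under quantile normalisation. The 7 macrophage markers other than Mertk lay between 0.452% and 1.18% of the macrophage mean in these rUUO samples, and 0.348% to 0.563% in sham. The 6 class II genes lay between 1.17% and 5.45%, and 0.408% to 1.83% in sham. The part of macrophage RNA in this was not tested.

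In stromal cells many genes were called and no member was. In UUO against sham 0 of 6 were called beside a background of 26.4% in either direction, in rUUO against UUO 0 of 6 (background 4.17%) and in rUUO against sham 0 of 6 (background 17.2%), all with limma. An unadjusted p under 0.05 was met by 0, 1 and 0 of them. The 1 was H2-DMb1, with a change of 0.98 from UUO to rUUO (95% interval 0.24 to 1.72, limma adjusted p = 0.134). With 6 members tested at these backgrounds, nothing about the members against genes at large is read from the counts. Cd74 was at 60.6 to 75.9 FPKM in sham, 50.1 to 85.6 in UUO, and in rUUO 62.1 to 102.9, and the 95% interval of its change in UUO was -0.39 to 0.46. H2-Eb1 was the only member whose UUO samples (20.3 to 22.1 FPKM) all lay above sham (13.4 to 18.2), 1 of 6 against a background of 13.2% of genes, with a change of 0.35 (adjusted p = 0.24).

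Some processing genes were called there. Of 5 tested, Ifi30, Ctsl and Lgmn rose in stromal UUO (background 13.4% higher) and in rUUO against sham (background 11.6%), with Lgmn at 2.05 and 2.19, the same 3 names that rose in UUO macrophages. Class I genes rose from UUO to rUUO in stromal cells, 5 of 10 (background 2.95% higher), with Nlrc5, the class I counterpart of CIITA, at 1.37 (adjusted p = 0.0378), having fallen by 1.06 in UUO (adjusted p = 0.0323).

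The difference between populations was tested directly as the UUO change in macrophages minus that in another population, on the 8 members that passed the filter over all samples. Ciita and Cd86 passed it only through macrophages, and neither was called in any of the 3 differences. Against PT cells 5 of 8 were lower (background 13.7%), H2-Ab1 by -2.52 ± 0.322, Cd74 by -2.47 ± 0.294, H2-Eb1 by -2.13, H2-Aa by -1.98 and H2-DMa by -1.47, with the median of all genes at -0.45. The first 4 were called in 51 of 51 alternatives each. H2-DMa was called in 43, and not under quantile normalisation (-0.91, adjusted p = 0.205), without filter or mitochondrial genes, or without macrophage UUO replicate 2, PT sham replicate 2 or 4 or PT UUO replicate 3 or 4. Against endothelial cells 4 of 8 were lower (background 1.21%), with H2-Eb1 at -1.46, Cd74 at -1.35, H2-Aa at -1.26 and H2-Ab1 at -1.23. Cd74 was called in 50 of 51 alternatives, H2-Eb1 in 48, H2-Ab1 in 45 and H2-Aa, close to the threshold, in 13. Against stromal cells 1 of 8, H2-Eb1, was lower at -1.31 ± 0.353 (background 7.88%), in 51 of 51 alternatives. The macrophage change enters all 3 differences.

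For the step from UUO to rUUO the same differences gave 0 of 8 calls against PT cells (background 0.781% in either direction), 0 of 8 against endothelial cells (background 0.154%) and 0 of 8 against stromal cells (background 1.17%), all with limma. The fitted differences ran from -0.80 to 0.46, and none of the 24 had an unadjusted p under 0.05.

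Genes outside the 9 with the pattern most like theirs were sought by Pearson's r with the mean log2(FPKM + 1) of the members, as a description. Over the 12 group means the first 10 were Ikzf1 (0.996), Dennd1c, Wdfy4, Itgb2, Cd68, Tlr9, Prkcb, Cx3cr1, Il10ra and Slamf7 (0.993). Of these, 2, Cd68 and Cx3cr1, were among the 8 macrophage markers, and since 3 of the 12 points are macrophages, any gene restricted to them scores high. The 11 macrophage samples include the one that stands apart, and their estimated depth ran from 0.79 to 1.06 times the median sample. Over these samples alone, the first 4 were Ebi3 (0.982), Cd14 (0.948), Rabac1 (0.938) and Tgfbr2 (0.934). None of these 4 is a class II gene.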

How the data were processed

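Gene expression was measured by RNA-seq in 44 samples of cells sorted from mouse kidney. The authors deposited 1 table of FPKM values on GRCm38, rounded to 2 decimals. The submitters' processing notes name FastQC, RSEM, Bowtie2, DESeq2 and mm10, without roles or versions, and cDNA was amplified with the Ovation RNA-Seq System V2. Of 46 value columns 2 carry the same sample title and were not used, and a PT sham sample of the labels was not analysed here. For a PT sample titled with both surgeries, the treatment label (UUO) was followed. The columns were pairwise different. The labels do not tie samples to mice, so p-values measure the spread between these samples. Gene names that a spreadsheet had turned into dates (March1, March8) were restored by identifier.

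Genes averaging 1 FPKM or more across a fit's samples were tested with limma 3.58.1 (lmFit, and eBayes with intensity trend) in R 4.3.3 on log2(FPKM + 1), with Benjamini-Hochberg adjustment over all genes and a threshold of 0.05. The log2(FPKM + 1) scale understates the change of low genes. Surgeries were compared within a population, sham populations and differences of changes in 1 fit of 12 groups. On data simulated for the macrophage comparison of UUO with sham (13332 genes), the test recovered 22 of 100 genes given a log2 change of 1 and 73 of 100 given one of 2. Alternatives were a pseudocount of 0.1, no filter, rescaling to TPM, quantile normalisation, no trend, a replicate block, all populations in 1 fit, each replicate left out and, chosen after seeing the data, FPKM without the 37 mitochondrial genes. The members and gene lists were chosen with earlier results of these data known. The text names all 9 members. From each other list it gives counts and, as examples, called genes with large changes, defining marker genes and genes with a stated role, and genes outside this rule were named after their values were seen. Promoter windows are from RefSeq, GRCm38.p6. Some items are not reported here.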

Additional observations from a re-analysis of the deposited data

Results flagged for a closer look

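The UUO change differed between macrophages and another population for 10 pairs of a member and a population, by limma's test of the difference itself (macrophage change minus the other change, log2). Against PT cells it was -2.47 for Cd74 (adjusted p = 6.6e-08), -2.52 for H2-Ab1 (adjusted p = 2.61e-07), -2.13 for H2-Eb1 (adjusted p = 5.09e-05), -1.98 for H2-Aa (adjusted p = 0.000104) and -1.47 for H2-DMa (adjusted p = 0.0262). Against endothelial cells it was -1.35 for Cd74 (adjusted p = 0.00578), -1.46 for H2-Eb1 (adjusted p = 0.0213), -1.23 for H2-Ab1 (adjusted p = 0.0305) and -1.26 for H2-Aa (adjusted p = 0.0498). Against stromal cells it was -1.31 for H2-Eb1 (adjusted p = 0.00739).

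In 71 groups of 4 samples, 6 held a sample far from the other 3 by Dixon's ratio of gap to range on log2(FPKM + 1), above the critical value of 0.829. Chance gives about 1 in 20. For H2-Eb1 these were the highest macrophage sham sample (7082 FPKM, ratio 0.878), the lowest stromal sham sample (13.4 FPKM, 0.933) and the lowest stromal UUO sample (20.3 FPKM, 0.879). The other 3 were single values near 0, Ciita at 0.15 FPKM in stromal rUUO (ratio 1) and Cd80 at 0.04 in endothelial sham (ratio 1) and 0.05 in endothelial rUUO (ratio 1).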

How the results depend on the processing

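Counts of members called moved by over 1.5 times as follows. For UUO against sham macrophages (4 members), no filter gave 0, no intensity trend 0 and the replicate block 1, and leaving out 1 replicate gave 0 to 6. For rUUO against sham macrophages (0 members), quantile normalisation gave 2 and rescaling without mitochondrial genes 2. For rUUO against sham in PT cells (5 members), no filter gave 2 and the replicate block 2, and leaving out 1 replicate 2 to 5. For rUUO against sham in endothelial cells (1 member), no filter, quantile normalisation, no intensity trend, the replicate block and the values without mitochondrial genes each gave 0, and leaving out 1 replicate 0 to 1. Without the filter more genes share the adjustment, and the intensity trend is fitted over those genes as well. In macrophage UUO against sham the limma adjusted p then rose for Cd74, from 0.0278 to 0.442, and fell for Ciita, from 0.233 to 0.166. The cause of these moves was not tested. The single reversal was H2-DMb1 in PT UUO against sham, at -0.0238 under quantile normalisation. Of 1057 refitted log2 changes of 46 results, 1056 kept their direction.

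Samples with the same replicate number hardly deviated together. The median r was 0.013 over 35 pairs within a population and between surgeries, with 1 pair over 0.1. Over 57 pairs within a surgery and between populations, which could share a mouse, it was 0.009, with 2 pairs over 0.1 and a highest of 0.167. The numbers were not taken as pairs, and a call lost with the block is not described as a weaker effect. Tests between populations treat samples as independent, and a shared mouse was not excluded.

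Over all genes, the reported settings called 665 (UUO against sham) and 459 (rUUO against sham) in macrophages, against 364 and 303 without filter, 346 and 115 with the replicate block, 1018 and 753 with all populations in the fit, and 443 in the first without trend. In PT cells quantile normalisation took 3747 calls to 2435 (UUO against sham), no filter 852 to 484 (rUUO against sham), and for rUUO against UUO 437 became 265 with a pseudocount of 0.1, 203 without filter, 257 without trend and 160 with the block. In endothelial cells 265 (UUO against sham), 237 (rUUO against sham) and 8 (rUUO against UUO) became 127, 116 and 0 without filter, 165, 128 and 5 without trend, 101, 68 and 0 with the block and 423, 452 and 67 with all populations, and 8 became 4 with a pseudocount of 0.1. In stromal cells 585 (rUUO against UUO) became 200 without filter, 360 under quantile normalisation, 116 with the block and 973 with all populations, and 2407 (rUUO against sham) 1574 with the block. For rUUO against UUO in macrophages, 0 became 0 to 35.

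Low values limit Ciita, Cd80 and Cd86 outside macrophages, and with FPKM alone no counting interval can be given.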
